A study of Mus musculus with 30 samples.

Results

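Spleen and lymph node of FVB/N mice were compared within the same animals. The arrays were chosen by their description, which names a control and the organ, and paired by the mouse number in the title. They were 3 spleen and 3 lymph node arrays from 3 mice, 6 of the 30 arrays of the series, and no measured value was used to choose them. The FVB/N mice are inbred albino mice without the transgene. They serve as the background strain of heterozygous Tg26 mice, whose transgene is an HIV-1 provirus (pNL4-3) lacking part of gag and pol, so that no infectious virus is made. The other 24 arrays came from 6 asymptomatic Tg26 mice and 6 Tg26 mice with lymphoma, with 1 spleen and 1 lymph node array each. Mice were 5 to 12 months old by the labels, which do not give the age or sex of single animals or say which lymph node was taken. All 6 FVB/N arrays belong to batch A, 1 of 2 labelled batches.

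Both organs hold B cells in follicles and T cells around them, and both are organised by stromal cells that secrete chemokines. They differ in how cells and antigen arrive. The spleen filters blood through its red pulp and marginal zone and, in mice, keeps some blood cell formation in adult life. A lymph node filters lymph through sinuses lined by lymphatic endothelium and macrophages, receives dendritic cells from the drained tissue by afferent lymph, and takes up blood lymphocytes across high endothelial venules.

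Affymetrix Mouse Gene 1.0 ST arrays were hybridised with total RNA. Values are log2 expression levels, so that a difference of 1 is a doubling, and 19938 genes were tested. Array medians of the 6 arrays lay between 6.8 and 6.84. The spleen arrays of mice 2 and 3 were nearly the same. Over 6647 genes with a mean level above 8 their difference had an SD of 0.0995, the smallest of all 435 pairs of arrays, with a largest single difference of 0.885. The next closest pair, the spleens of asymptomatic mice 2 and 3, had an SD of 0.109, and the spleen of mouse 1 differed from the other spleens with SDs of 0.281 and 0.288. Whether the spleens of mice 2 and 3 are separate extracts was not tested, so counts of genes are also given with both counted as 1. In that setting the nodes of mice 2 and 3 were averaged as well, so that mouse 1 weighs as much as both together. Asymptomatic mice 2 and 3 were merged in the same way. Below, the setting is named by the spleens counted as 1 or counted once, and it does not separate the spleens from the nodes. The nodes were less alike, with SDs from 0.442 to 0.672. All 6 arrays had the Y-linked gene Eif2s3y at 9.13 or more and Xist at 5.16 or less.

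The nodes of mice 2 and 3 carried transcripts of neighbouring tissue. Over 37 measured salivary gland genes, the nodes of mice 1, 2 and 3 averaged 5.76, 9.75 and 7.68, and the spleens 5.87 to 5.91. In the node of mouse 2, 28 of these 37 genes lay more than 2 log2 units above the highest spleen, in that of mouse 3 it was 10, and in that of mouse 1 it was 0. Bpifa2, a secreted salivary protein, read 5.04, 14.02 and 13.85 in the nodes of mice 1, 2 and 3. The salivary amylase gene Amy1 read 4.85, 13.57 and 13.08, and the carbonic anhydrase Car6 4.95, 13.59 and 12.73. Pip read 4.06, 13.32 and 12.47, and Smr3a 5.26, 13.31 and 12.27. None of these 5 genes exceeded 5.40 in a spleen. Adipose genes (20 measured) averaged 6.79, 8.97 and 7.44 in the 3 nodes and 6.75 to 6.77 in the spleens. Skeletal muscle genes (22 measured) averaged 6.31, 8.57 and 6.25, against 6.33 to 6.40. Exocrine pancreas genes averaged 5.90 to 6.09 on all 6 arrays. Nerve and skin genes averaged 6.32, 7.11 and 6.43 in the nodes and 6.32 to 6.35 in the spleens. Members of these lists were left out of the named genes, but they are part of the counts over all genes that follow, with 12 salivary, 2 adipose, 1 muscle and 1 nerve or skin gene among those called higher in the nodes.

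Each gene was tested with limma in a fit of all 30 arrays, Tg26 mice included, with the mouse as a block. The p-values were adjusted by Benjamini-Hochberg over the whole table, and a gene is called where the adjusted p is under 0.05. Of 19938 genes, 879 (4.41%) were higher in the nodes and 725 (3.64%) in the spleens, 1604 (8.04%) in all, and the median difference over all genes was -0.07. All 3 nodes lay above all 3 spleens for 1882 genes (9.44%) and below them for 3585 (18%). With the spleens of mice 2 and 3 counted as 1, and their nodes averaged too, 80 (0.401%) and 116 (0.582%) genes were called. Without mouse 1 the counts were 1559 and 995, without mouse 2 they were 121 and 106, and without mouse 3 they were 122 and 185. Within batch A, 485 (2.43%) and 608 (3.05%) were called. In a fit of the 6 arrays alone, which leaves few degrees of freedom, 0 genes passed, with 3167 at an unadjusted p under 0.05. When the mean salivary, adipose and pancreas levels of each array were added as covariates, 87 and 49 genes were called. Below these are called the covariates or neighbouring-tissue covariates. Muscle, nerve and skin levels were not among them, so the muscle signal in the node of mouse 2 was not adjusted for. A set of 71 genes, 37 higher in the nodes and 34 in the spleens, was called in the fit described and in 13 of the 15 other settings. Not counted were the fit of the 6 arrays alone, where none passed, and a filter on low levels, which takes genes out of the test. Fxyd2 of the salivary list and Pmp22 of the nerve and skin list are among the 71. Nothing here separates fewer cells of a type from less RNA per cell, since whole organs were measured.

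**Figure D1:**
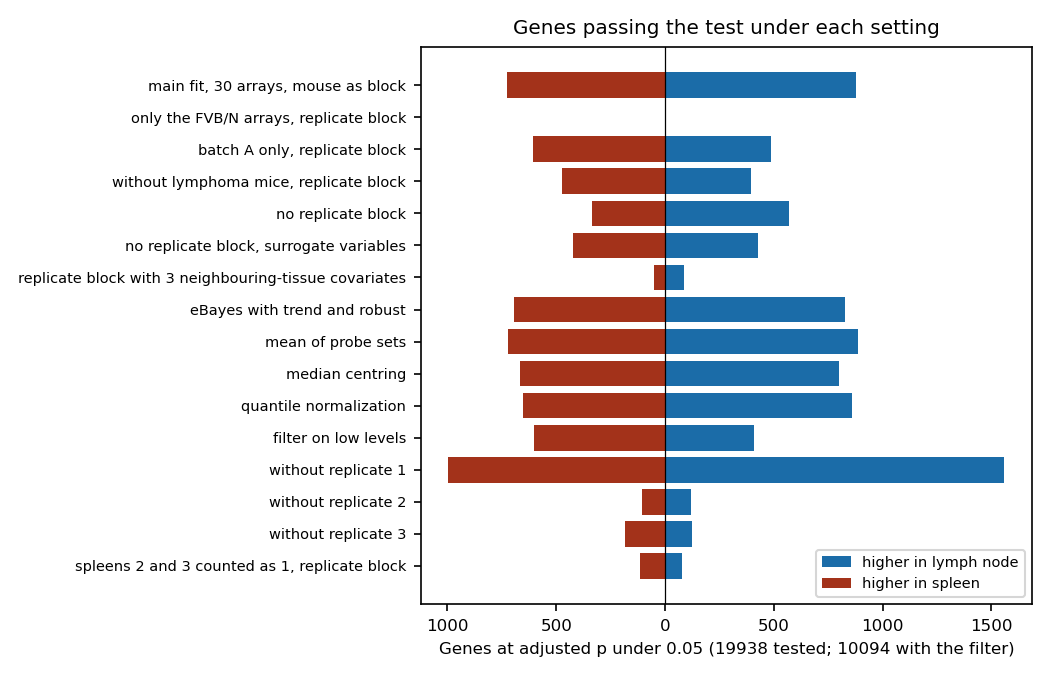
Number of genes called higher in lymph node (bars to the right of 0) or in spleen (to the left) at an adjusted p under 0.05, for each setting (rows). The fit described gives 879 and 725, and the 6 arrays alone give 0 and 0. Counting the spleens of mice 2 and 3 as 1, with their nodes averaged too, gives 80 and 116.

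**Figure D2:**
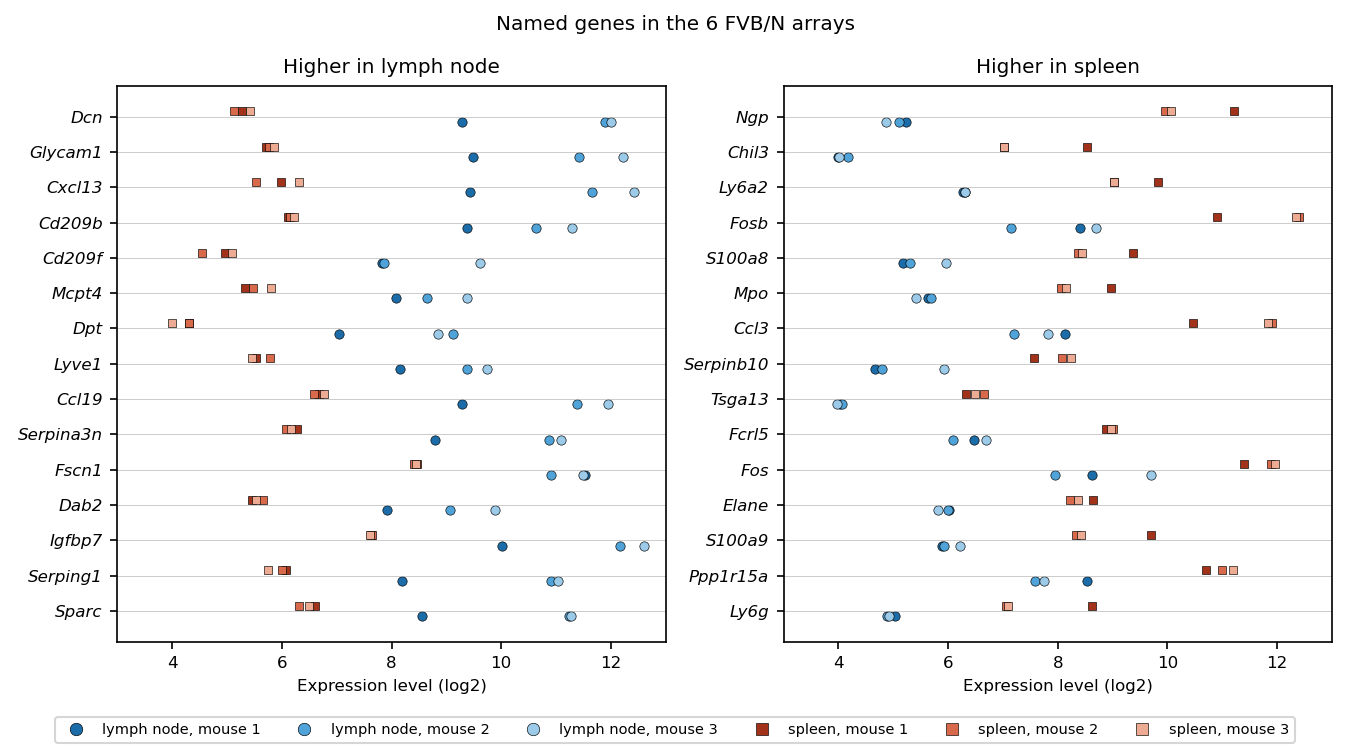
Log2 expression level (x axis) of the 15 named genes higher in lymph node (left) and the 15 higher in spleen (right), 1 point per array, circles for nodes and squares for spleens, shaded by mouse. For Dcn the nodes sit at 9.28 to 12.00 and the spleens at 5.13 to 5.42, while for Ngp the spleens sit at 9.95 to 11.22 and the nodes at 4.87 to 5.23.

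Some connective tissue genes were higher in the nodes. Decorin (Dcn), a small proteoglycan that binds collagen, read 9.28, 11.89 and 12.00 in the nodes of mice 1, 2 and 3 and 5.28, 5.13 and 5.42 in their spleens. The node of mouse 1 was the lowest of the nodes, and the organs did not overlap. The mean difference of the 3 mice was 5.78 ± 0.78 (SE), or 55.0-fold (limma, adjusted p = 0.00081, and 0.0249 with the spleens of mice 2 and 3 counted as 1). Here and below, the SE uses the spread shared by all 15 mice of the fit, not that of the 3 FVB/N mice alone. Dermatopontin (Dpt), another matrix protein, read 7.05, 9.13 and 8.85 in the nodes and 4.31, 4.30 and 3.99 in the spleens, a difference of 4.14 ± 0.63 (adjusted p = 0.0015). Timp3, an inhibitor of matrix metalloproteinases, read 6.86, 9.18 and 8.61 against 5.41, 5.35 and 5.82 and was 2.69 ± 0.40 higher (adjusted p = 0.00136). All 3 genes were among the 71 called in those 13 settings. Sparc, a matrix glycoprotein, was 3.89 ± 0.65 higher (adjusted p = 0.00251), but its adjusted p was 0.0543 without mouse 2 and 0.202 with the neighbouring-tissue covariates. Biglycan (Bgn), a relative of decorin, was 3.82 ± 0.64 higher (adjusted p = 0.00251), with 0.0508 without mouse 3. Igfbp7, a secreted protein of vessel walls, was 3.96 ± 0.65 higher (adjusted p = 0.00221), with 0.168 under the covariates.

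Of 61 measured matrix and fibroblast genes, 27 (44.3%, against 4.41% of all genes) were higher in the nodes and the other 34 did not pass. The list median was 0.82 against -0.07 for all genes. The median within mouse 1 was 0.06, and within mice 2 and 3 it was 1.20 and 1.19. Their mean level was 6.53, 7.77 and 7.72 in the nodes of mice 1, 2 and 3, and 6.22 to 6.26 in the spleens. Without mice 1, 2 and 3 in turn, 39, 4 and 4 members were called, with the near-identical spleens counted once 3, and with the covariates 3. The salivary and adipose levels of the nodes followed a like order over the mice, and their part in these values was not tested.

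Smooth muscle and capsule genes showed the same division between mice. Of 24 measured, 11 (45.8%, against 4.41% of all genes) were higher in the nodes. The list medians were 0.09, 0.97 and 0.81 in mice 1, 2 and 3. Synpo2, an actin-binding protein of smooth muscle, read 6.81, 7.60 and 7.97 in the nodes and 5.74, 5.90 and 5.71 in the spleens, a difference of 1.68 ± 0.20 (adjusted p = 0.000413). It was the member called in all of the 13 settings. Desmin (Des) was 2.26 ± 0.42 higher (adjusted p = 0.00454, and 0.0735 without mouse 2), and Acta2, smooth muscle actin, 2.01 ± 0.51 higher (adjusted p = 0.0229, and 0.255 without mouse 2). The list count was 1 without mouse 2, without mouse 3, with the spleens of mice 2 and 3 counted as 1 and with the covariates.

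Stromal chemokines that place lymphocytes were among the largest node differences. Cxcl13, which draws B cells into follicles, read 9.44, 11.65 and 12.42 in the nodes and 5.99, 5.52 and 6.32 in the spleens. Every node was at least 3 log2 units above every spleen, and the difference was 5.23 ± 0.58, or 37.5-fold (adjusted p = 0.000315, and 0.0132 with the spleens of mice 2 and 3 counted as 1). Ccl19, a CCR7 ligand of the T cell zone, read 9.28, 11.39 and 11.95 in the nodes and 6.67, 6.59 and 6.77 in the spleens, 4.20 ± 0.55 higher (adjusted p = 0.000701). Both are among the 71. Cxcl12, the ligand of CXCR4, read 7.25, 9.94 and 10.19 against 5.92, 5.97 and 5.90, 3.20 ± 0.52 higher (adjusted p = 0.00226, and 0.0581 with the spleens counted once). Il33, an alarmin of fibroblastic stroma, was 3.14 ± 0.57 higher (adjusted p = 0.00396), with 0.061 without mouse 2. Il7, the survival cytokine of naive T cells, was 1.52 ± 0.33 higher (adjusted p = 0.0106), with 0.133 without mouse 2. Of 30 measured stromal and homing factor genes, 11 (36.7%, against 4.41% of all genes) were higher in the nodes. In the spleens 1 was higher (3.33%, against 3.64%), and the list median was 0.67. Without mice 1, 2 and 3, the node-higher counts were 15, 4 and 3, and 3 passed with the spleens counted once or with the covariates.

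High endothelial venules were represented by Glycam1, a mucin that carries L-selectin ligands. It read 9.48, 11.42 and 12.23 in the nodes and 5.71, 5.76 and 5.85 in the spleens. The lowest node was above the highest spleen by more than 3 log2 units, and the difference was 5.27 ± 0.69, or 38.7-fold (adjusted p = 0.000701, and 0.0214 with the spleens counted once). The list of venule and addressin genes had 7 of 27 measured members (25.9%, against 4.41% of all genes) higher in the nodes. Its median was 0.46. Counts without mice 1, 2 and 3 were 11, 2 and 2, and Glycam1 was the member left with the spleens counted once. Madcam1, the mucosal addressin, was not called (0.48 ± 0.17, adjusted p = 0.0914), nor was Chst4, a sulfotransferase of these vessels (0.53 ± 0.27, adjusted p = 0.263).

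Some endothelial genes of lymph and blood vessels were also higher in the nodes. Lyve1, a hyaluronan receptor of lymphatic vessels and some macrophages, read 8.15, 9.38 and 9.75 in the nodes and 5.53, 5.79 and 5.46 in the spleens. No spleen reached a node, and the difference was 3.50 ± 0.49 (adjusted p = 0.000969, and 0.0245 with the spleens counted once). Prox1, the transcription factor that sets lymphatic identity, read 6.22, 7.22 and 7.91 against 5.45, 5.54 and 5.47, 1.63 ± 0.35 higher (adjusted p = 0.0102, and 0.10 without mouse 2). Of 34 measured lymphatic endothelial genes, 12 (35.3%, against 4.41% of all genes) were higher in the nodes. The list medians were 0.17, 0.80 and 1.20 in mice 1, 2 and 3. Cdh5, the cadherin of endothelial junctions, was 2.33 ± 0.37 higher (adjusted p = 0.00189, and 0.0724 with the covariates). Among 37 blood endothelial genes, 19 (51.4%, against 4.41% of all genes) were higher in the nodes. In the spleens 2 were higher (5.41%, against 3.64%). The list median was 0.83, with 0.16, 1.06 and 1.44 in mice 1, 2 and 3. With the spleens of mice 2 and 3 counted as 1, 1 lymphatic gene and 2 blood endothelial genes were higher in the nodes. Without mouse 2 the counts were 1 and 4, and with the covariates 1 and 1. Lyve1 is a member of both lists, so these counts are not independent. It was the lymphatic gene left in each of these settings and the blood endothelial gene left with the covariates. It was also 1 of the 2 blood endothelial genes left with the spleens counted once.

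**Figure D3:**
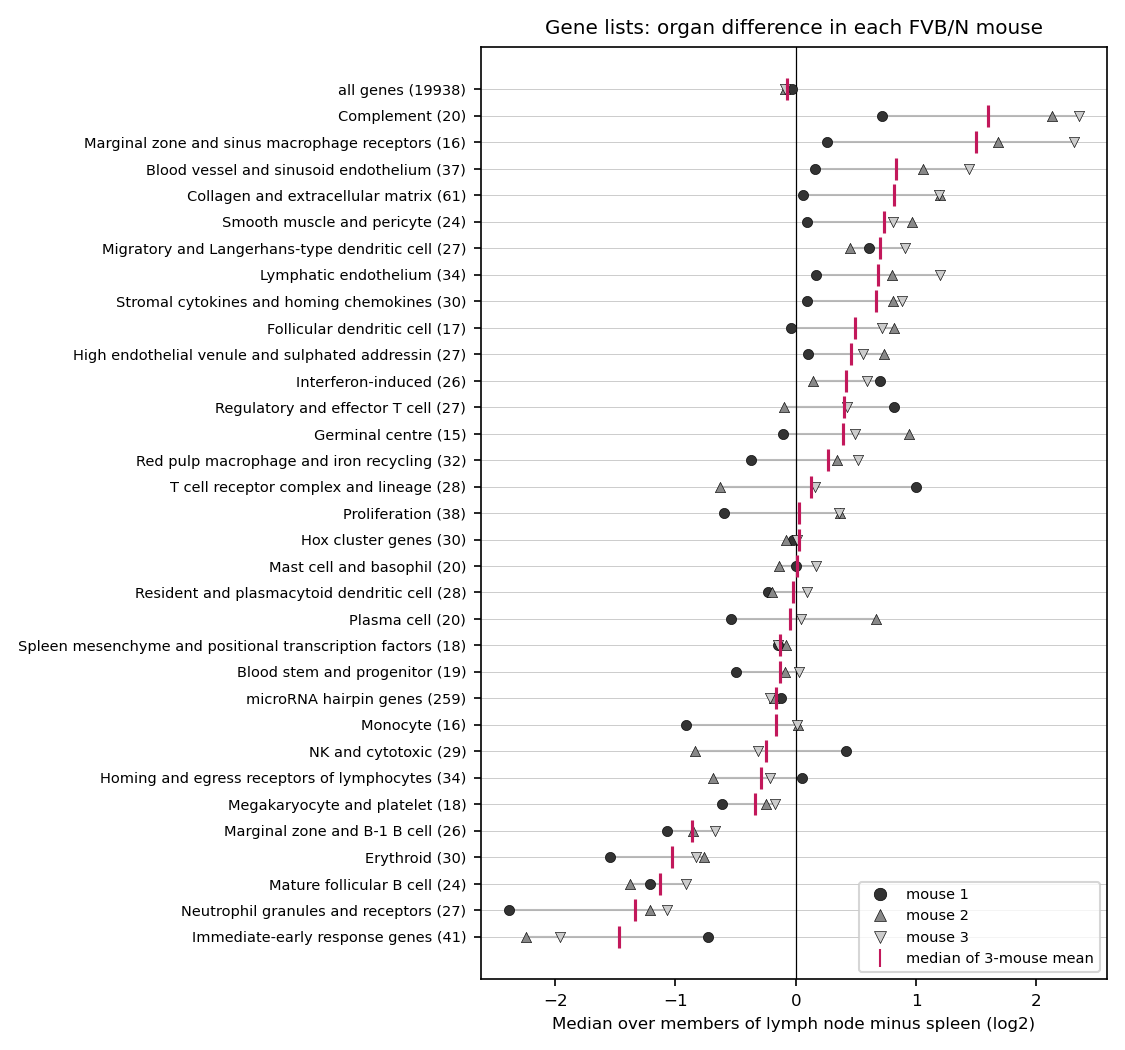
Median over the members of each gene list (rows, with the number measured) of the level in lymph node minus spleen (x axis, log2), as 1 symbol per mouse and a bar for the median of the 3-mouse means, with all 19938 genes in the top row. The matrix list sits at 0.06, 1.20 and 1.19 in mice 1, 2 and 3, and the neutrophil list below 0 in all 3 mice, with a median of -1.34.

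Several macrophage receptors that are used as marginal zone markers in spleen were higher in the nodes, where medullary and subcapsular sinus macrophages also carry some of them. Cd209b (SIGN-R1), a lectin that captures polysaccharides, read 9.37, 10.63 and 11.30 in the nodes and 6.11, 6.15 and 6.22 in the spleens. The difference was 4.27 ± 0.60, or 19.3-fold (adjusted p = 0.00102, and 0.0269 with the spleens counted once). Its relative Cd209f read 7.83, 7.87 and 9.61 against 4.97, 4.54 and 5.10, 3.56 ± 0.57 higher (adjusted p = 0.00206). Siglec1 (CD169), a sialic acid receptor, was 2.91 ± 0.56 higher (adjusted p = 0.00518, and 0.0794 without mouse 2), and the scavenger receptor Marco 1.61 ± 0.44 higher (adjusted p = 0.0327, and 0.201 without mouse 2). Cd209a went the other way, 1.10 ± 0.22 higher in the spleens (adjusted p = 0.00616, and 0.0961 without mouse 2). Of 16 measured members, 8 (50%, against 4.41% of all genes) were higher in the nodes and 1 (6.25%, against 3.64%) in the spleens. With the spleens counted once 2 were called, both higher in the nodes. These 2 were Cd209b and Lyve1, which is also on both endothelial lists. Dab2, an endocytic adaptor, was higher in the nodes by 3.41 ± 0.43 (adjusted p = 0.000564).

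With limma, 0 red pulp macrophage genes were called higher in the spleens, with 1 at an unadjusted p under 0.05. Within batch A 1 was called. Spic, the transcription factor of these cells, read 7.15, 8.07 and 8.89 in the nodes and 7.53, 7.77 and 7.93 in the spleens (0.30 ± 0.64, adjusted p = 0.815). The ranges overlapped. The iron exporter Slc40a1 read 5.76, 7.32 and 8.51 against 8.26, 7.23 and 7.26 (-0.39 ± 1.04, adjusted p = 0.854). The list median was -0.37, 0.34 and 0.52 in mice 1, 2 and 3, so that the list lay lower in the node in mouse 1 only. With the covariates the median was -0.12, and the part of neighbouring tissue in these values was not tested. Of 32 measured members, 3 (9.38%, against 4.41% of all genes) were higher in the nodes. They were Timd4, a receptor for phosphatidylserine, Axl, a receptor kinase that recognises dying cells, and the complement gene C1qb. Timd4 was 3.02 ± 0.54 higher (adjusted p = 0.00361, and 0.07 with the spleens counted once). Transcription factors of the embryonic spleen gave few calls. Tlx1 read 5.88 to 6.22 in the nodes and 6.12 to 6.29 in the spleens (adjusted p = 0.847), and Nkx2-5 7.47 to 7.54 against 7.68 to 7.79 (adjusted p = 0.399). The organs overlapped for Tlx1 and not for Nkx2-5, and 4 of 18 members (22.2%, against 18% of all genes) had every spleen above every node. Of 18 measured spleen patterning genes, 3 (Gata6, Nr2f2 and Foxf1) were higher in the nodes (16.7%, against 4.41% of all genes). In the spleens 1 was higher (5.56%, against 3.64%), Bcl11a, which B cells also express. None of these calls held with the spleens counted once.

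Many genes of dendritic cells that have migrated from tissue were higher in the nodes, and the list median was above 0 in all 3 mice. Fscn1, the actin-bundling protein of mature dendritic cells, read 11.53, 10.90 and 11.49 in the nodes and 8.47, 8.41 and 8.44 in the spleens, 2.87 ± 0.37 higher (adjusted p = 0.000701, and 0.0151 with the spleens counted once). Here the node of mouse 1 was the highest, in contrast to the matrix genes. Ccl22, a ligand of CCR4, read 9.16, 8.15 and 9.14 against 6.51, 6.67 and 6.61, 2.22 ± 0.27 higher (adjusted p = 0.00045). Ccl17, the other CCR4 ligand, read 8.22, 7.44 and 8.13 against 6.24, 6.10 and 6.29, 1.72 ± 0.26 higher (adjusted p = 0.0015). Socs2, a feedback inhibitor of cytokine signalling, was 2.27 ± 0.27 higher (adjusted p = 0.00039), and Nudt17 and Slco5a1 were 1.60 ± 0.21 and 1.44 ± 0.20 higher (adjusted p = 0.000726 and 0.000914). These 6 genes are among the 71. Of 27 measured members, 13 (48.1%, against 4.41% of all genes) were higher in the nodes. The list median was 0.70, with 0.61, 0.45 and 0.91 within mice 1, 2 and 3. The count was 13, 8 and 7 without mice 1, 2 and 3, 7 with the spleens counted once and 7 with the covariates.

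Most called genes of the resident dendritic cell list were higher in the spleens. Itgae (CD103), an integrin of cross-presenting dendritic cells and of some T cells, read 8.86, 7.66 and 8.20 in the nodes and 6.64, 6.57 and 6.64 in the spleens, 1.62 ± 0.23 higher (adjusted p = 0.00102, and 0.0151 with the spleens counted once). Clec4a4, a lectin of the CD8-negative splenic subset, read 4.09, 3.63 and 4.43 against 6.07, 6.01 and 5.80, 1.91 ± 0.34 higher in the spleens (adjusted p = 0.00383, and 0.0681 without mouse 2). Of 28 measured members, 1 (3.57%, against 4.41% of all genes) was higher in the nodes. In the spleens 5 (17.9%, against 3.64%) were higher. With the spleens counted once 1 was called in each direction.

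Mast cell and basophil proteases went in opposite directions. Mcpt4, a chymase of connective tissue mast cells, read 8.09, 8.65 and 9.37 in the nodes and 5.33, 5.47 and 5.81 in the spleens. The difference of 3.17 ± 0.28, or 9.0-fold, had an adjusted p of 8.21e-05, and of 0.00338 with the spleens counted once. Cpa3, the mast cell carboxypeptidase, was 2.38 ± 0.36 higher in the nodes (adjusted p = 0.00155, and 0.0591 with the covariates). Mcpt8, the protease that marks basophils, read 5.21, 5.31 and 5.33 in the nodes and 7.22, 7.10 and 7.18 in the spleens, 1.88 ± 0.26 higher in the spleens (adjusted p = 0.000946, and 0.0546 with the covariates). Prss34, another basophil protease, was 0.82 ± 0.16 higher in the spleens (adjusted p = 0.00626, and 0.0832 without mouse 3). Of 20 measured members, 4 (20%, against 4.41% of all genes) were higher in the nodes and 3 (15%, against 3.64%) in the spleens. With the spleens counted once these were 2 and 1, and with the covariates 1 and 0.

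Part of the complement genes, many of them made by stroma, were higher in the nodes. Serping1, the C1 inhibitor, read 8.19, 10.90 and 11.03 in the nodes and 6.08, 6.00 and 5.74 in the spleens, 4.10 ± 0.60 higher (adjusted p = 0.00134, and 0.0942 with the covariates). Clusterin (Clu) was 3.28 ± 0.46 higher (adjusted p = 0.00102, and 0.0756 with the covariates), and C4b 3.03 ± 0.57 higher (adjusted p = 0.00491, and 0.0953 with the spleens counted once). Serpina3n, an inhibitor of serine proteases, was 4.07 ± 0.66 higher (adjusted p = 0.00208, and 0.131 with the covariates). Of 20 measured complement and coagulation genes, 9 (45%, against 4.41% of all genes) were higher in the nodes, with a median of 1.60. Leaving out mouse 1, 2 or 3 gave 10, 2 and 2, with the spleens counted once 2, and with the covariates 0, with 8 at an unadjusted p under 0.05. Interferon-induced genes gave 8 of 26 (30.8%, against 4.41% of all genes) higher in the nodes. Their medians were 0.70, 0.14 and 0.59 in mice 1, 2 and 3. Rtp4 was 1.46 ± 0.26 higher (adjusted p = 0.00384), and this call and the other 7 were lost with the spleens counted once, when Rtp4 had an adjusted p of 0.0517 and 9 members an unadjusted p under 0.05.

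Many B cell genes were higher in the spleens. Cd79b, a signalling chain of the B cell receptor, read 10.98, 11.29 and 11.49 in the nodes and 12.47, 12.67 and 12.60 in the spleens. All nodes lay below all spleens, and the difference was 1.33 ± 0.14 (adjusted p = 0.000275, and 0.004 with the spleens counted once). Its partner Cd79a read 10.06, 10.31 and 9.98 against 11.40, 11.07 and 11.07, 1.06 ± 0.18 higher in the spleens (adjusted p = 0.00273). Blnk, the adaptor below this receptor, was 1.36 ± 0.21 higher (adjusted p = 0.00166), and Pou2af1, a B cell coactivator, 0.79 ± 0.14 higher (adjusted p = 0.00325). These 4 are among the 71. Of 24 measured follicular B cell genes, 15 (62.5%, against 3.64% of all genes) were higher in the spleens, with a median of -1.13. The mean level of the list was 9.69, 9.64 and 10.05 in the nodes of mice 1, 2 and 3 and 10.80 to 10.89 in the spleens. When mouse 1, 2 or 3 was left out the counts were 15, 5 and 10, with the spleens counted once 7, and with the covariates 5. Ms4a1 (CD20) had the same direction and did not pass (-1.12 ± 0.40, adjusted p = 0.0988).

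Marginal zone B cells reside in spleen. Plac8 read 7.73, 8.37 and 8.58 in the nodes and 10.16, 10.27 and 10.30 in the spleens, 2.02 ± 0.28 higher in the spleens (adjusted p = 0.000969, and 0.0187 with the spleens counted once). Hes1, a target of the Notch signalling that these cells need, read 6.93, 8.52 and 8.15 against 8.32, 10.06 and 10.12. Its ranges overlapped between mice, while within each mouse the spleen was higher, by 1.63 ± 0.21 on average (adjusted p = 0.000701). Tnfrsf13b (TACI), a receptor for BAFF and APRIL, was 1.22 ± 0.18 higher (adjusted p = 0.00143). Fcrl5, an Fc receptor-like protein of these cells, was 2.53 ± 0.48 higher (adjusted p = 0.0052, and 0.0779 without mouse 2), and Cr2 (CD21), a complement receptor, 1.65 ± 0.41 higher (adjusted p = 0.0225, and 0.0925 without mouse 1). The list also holds genes of B-1 cells. Of its 26 measured members, 13 (50.0%, against 3.64% of all genes) were higher in the spleens, with a median of -0.86. The count was 10, 5 and 6 without mice 1, 2 and 3, 5 with the spleens counted once and 5 with the covariates. For the follicular B cell list the share was 62.5% and the median -1.13, so the difference was not particular to this list.

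Some germinal centre genes and 1 plasma cell gene were called. Of 15 germinal centre genes, 4 (26.7%, against 4.41% of all genes) were higher in the nodes. The list medians were -0.11, 0.94 and 0.49 in mice 1, 2 and 3. Only Basp1 kept its call with the spleens counted once (1.32 ± 0.20, adjusted p = 0.00164 and 0.0362, and 0.077 with the covariates). Rgs13 read 5.48, 9.26 and 8.14 in the nodes and 5.43, 5.66 and 6.19 in the spleens, with an adjusted p of 0.0301, and of 0.449 without mouse 2. Among 20 plasma cell genes, 1 (5%, against 3.64% of all genes) was called higher in the spleens, Irf4, which activated B cells also express. It read 8.91, 8.33 and 9.06 in the nodes and 10.12, 11.05 and 11.07 in the spleens, 1.98 ± 0.23 higher in the spleens (adjusted p = 0.000378).

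T cell genes differed in direction between the mice. Cd3e, a CD3 chain that signals for the T cell receptor, read 12.41, 10.84 and 11.44 in the nodes and 11.31, 11.50 and 11.51 in the spleens (0.13 ± 0.33, adjusted p = 0.845). The node of mouse 1 was the highest and the node of mouse 2 the lowest of the 6 arrays. Over 28 measured T cell genes the mean level was 10.65, 9.08 and 9.84 in the nodes and 9.64 to 9.67 in the spleens, and the medians within mice 1, 2 and 3 were 1.00, -0.63 and 0.16. This order over the nodes was the reverse of that of the salivary and adipose levels, and a link was not tested. Of the 28, 2 (7.14%, against 4.41% of all genes) were higher in the nodes. They were Igfbp4 by 1.06 ± 0.21 and the costimulator Icos by 0.88 ± 0.24 (limma, adjusted p = 0.00596 and 0.0356). With the spleens of mice 2 and 3 counted as 1 they had an adjusted p of 0.0661 and 0.126. With the neighbouring-tissue covariates the list median was 0.82, and 0 were called, with 17 of the 28 higher in the nodes and 0 in the spleens at an unadjusted p under 0.05. With no block and 6 surrogate variables, limma called 10 higher in the nodes and 0 in the spleens. Of 27 regulatory and effector T cell genes, 5 (18.5%, against 4.41% of all genes) were higher in the nodes. Among them was Il23r, the IL-23 receptor, by 1.07 ± 0.20 (limma, adjusted p = 0.00472, and 0.0773 without mouse 3). With the covariates 6 members of this list were called, all higher in the nodes, and the list median was 0.73. Among 29 cytotoxic and natural killer genes, 4 (13.8%, against 3.64% of all genes) were higher in the spleens. These included Ifng by 2.44 ± 0.46 and Gzma by 1.70 ± 0.36 (limma, adjusted p = 0.00474 and 0.00939). Without mouse 2 they had an adjusted p of 0.0928 and 0.142.

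**Figure D4:**
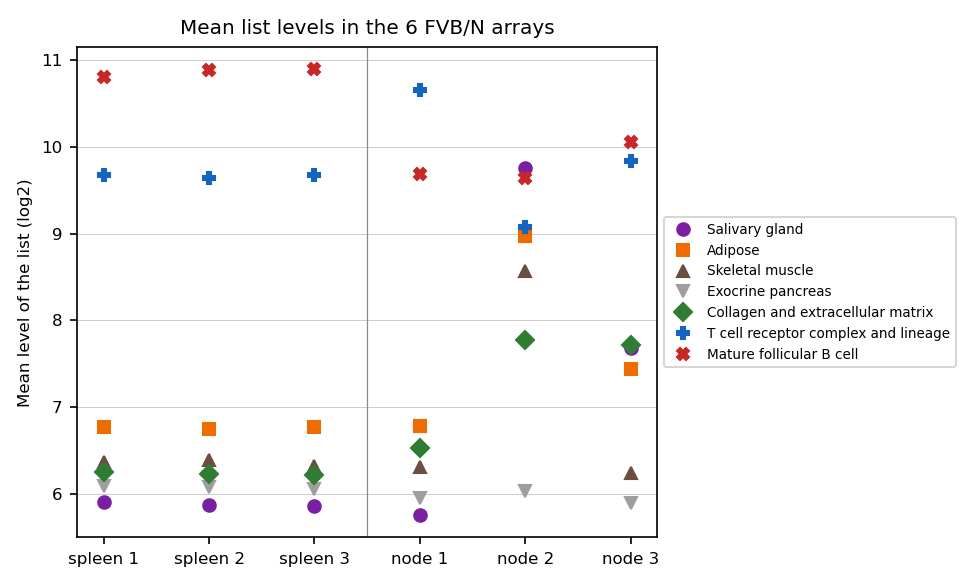
Mean log2 level (y axis) of the salivary gland, adipose, muscle, pancreas, matrix, T cell and follicular B cell lists on each of the 6 FVB/N arrays (x axis, spleens on the left and nodes on the right), 1 symbol and colour per list. T cell genes average 10.65, 9.08 and 9.84 in the nodes of mice 1, 2 and 3, matrix genes 6.53, 7.77 and 7.72, and salivary gland genes 5.76, 9.75 and 7.68.

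Of 34 measured receptors and regulators that guide lymphocytes, 9 (26.5%, against 3.64% of all genes) were higher in the spleens. In the nodes 2 were higher (5.88%, against 4.41%), and 23 did not pass. Cxcr4 read 10.37, 9.41 and 9.49 in the nodes and 11.44, 11.76 and 11.71 in the spleens, 1.88 ± 0.25 higher in the spleens (adjusted p = 0.000701, and 0.0231 with the spleens counted once). Its ligand Cxcl12 had the opposite direction, as given above. Gpr183 (EBI2), the oxysterol receptor that moves B cells to the follicle edge, was 1.29 ± 0.19 higher (adjusted p = 0.00134, and 0.097 with the covariates). S1pr1, the egress receptor, was 0.86 ± 0.18 higher (adjusted p = 0.00783, and 0.161 without mouse 2), and Klf2, which drives its transcription, 1.76 ± 0.30 higher (adjusted p = 0.0031, and 0.0686 without mouse 2). Ccr7 read 12.02, 10.25 and 11.10 against 11.52, 12.20 and 12.24 and did not pass (-0.86 ± 0.32, adjusted p = 0.119), while without mouse 1 its adjusted p was 0.00169. The list median was 0.05, -0.69 and -0.21 in mice 1, 2 and 3. Without mice 1, 2 and 3 the spleen-higher counts were 10, 3 and 5, with the spleens counted once 2 passed, and with the covariates 1 was higher in the spleens and 3 in the nodes.

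Many neutrophil genes were higher in the spleens, with the largest list median in mouse 1. Ngp, a granule protein, read 5.23, 5.10 and 4.87 in the nodes and 11.22, 9.95 and 10.06 in the spleens. The spleens were more than 4 log2 units above every node, and the difference was 5.34 ± 1.05, or 40.6-fold (adjusted p = 0.00612, 0.0569 and 0.0557 without mice 2 and 3, and 0.0669 with the spleens counted once). Chil3, a chitinase-like secreted protein, read 3.99, 4.18 and 4.01 against 8.54, 7.01 and 7.01, 3.46 ± 0.65 higher (adjusted p = 0.00472, 0.0496 with the spleens counted once, and 0.0732 with the covariates). Ltf (lactoferrin), also a member of the salivary gland list, was 3.51 ± 0.74 higher (adjusted p = 0.00872, and 0.0563 without mouse 3). The primary granule enzymes Mpo and Elane, made in precursors, were 2.81 ± 0.60 and 2.47 ± 0.51 higher (adjusted p = 0.00985 and 0.00766). Without mouse 2 these had an adjusted p of 0.0674 and 0.0631. S100a8 and S100a9, which form calprotectin, were 3.25 ± 0.91 and 2.82 ± 0.73 higher (adjusted p = 0.0375 and 0.0252), and 0.124 and 0.103 without mouse 1. Ly6g, a surface marker of neutrophils, was 2.64 ± 0.62 higher (adjusted p = 0.0154, and 0.0702 without mouse 1). Of 27 measured members, 15 (55.6%, against 3.64% of all genes) were higher in the spleens. For 24 (88.9%, against 18% of all genes) every spleen lay above every node. The mean level was 8.23, 7.28 and 7.33 in the spleens and 5.64, 5.89 and 5.84 in the nodes. Without mice 1, 2 and 3 the counts were 7, 3 and 2, with the spleens counted once 1, and with the covariates 0, with 24 at an unadjusted p under 0.05.

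Serpinb10, a serpin of myeloid cells, was 2.84 ± 0.64 higher in the spleens (adjusted p = 0.0122, and 0.14 without mouse 2). Ly6a2 of the Ly6 family was 3.00 ± 0.59 higher (adjusted p = 0.00596, and 0.0558 without mouse 2), and Tsga13 read 6.32 to 6.65 in the spleens against 3.98 to 4.07 in the nodes (adjusted p = 0.00943, and 0.0975 without mouse 2).

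Erythroid genes lay higher in the spleens without passing the test. Car1, a carbonic anhydrase of red cells, read 5.49, 5.98 and 5.45 in the nodes and 11.90, 10.16 and 10.29 in the spleens (-5.14 ± 1.59, adjusted p = 0.0593). Slc4a1, the anion exchanger band 3, read 6.46, 6.19 and 6.25 against 10.75, 9.24 and 9.27 (-3.46 ± 1.12, adjusted p = 0.0699). For 22 of 30 measured members (73.3%, against 18% of all genes) every spleen lay above every node, and 0 were called with limma, with 18 higher in the spleens at an unadjusted p under 0.05. Within batch A 13 were called, with an adjusted p of 0.000467 for Car1 and 0.000674 for Slc4a1. The list averaged 8.52, 7.55 and 7.54 in the spleens and 6.53 to 6.66 in the nodes, so that the spleen of mouse 1 was again the highest. Of 18 platelet and megakaryocyte genes, 1 was called in each direction. That is 5.56% each, near the 4.41% of all genes called higher in the nodes and the 3.64% called higher in the spleens. Tubb1, the platelet tubulin, was higher in the spleens by 1.59 ± 0.43 (adjusted p = 0.0315, and 0.114 without mouse 1), and Mmrn1, which endothelial cells also express, was higher in the nodes by 2.04 ± 0.54 (adjusted p = 0.0283, and 0.25 without mouse 2). Proliferation genes gave 1 call among 38 (2.63%, against 3.64% of all genes), with a list median of 0.03. This call was Cenpa, higher in the spleens (limma, adjusted p = 0.0223, and 0.246 without mouse 2).

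Immediate-early genes, which cells transcribe within minutes of a stimulus without new protein synthesis, were in large part higher in the spleens. This list was put together after the largest spleen differences had been seen, so its counts are a description. Fosb, an AP-1 subunit, read 8.41, 7.14 and 8.69 in the nodes and 10.90, 12.39 and 12.34 in the spleens. The spleen of mouse 1 was the lowest spleen and still above all nodes, and the difference was 3.80 ± 0.49, or 13.9-fold (adjusted p = 0.000696, and 0.016 with the spleens counted once). Fos read 8.63, 7.95 and 9.70 against 11.40, 11.89 and 11.96, 2.99 ± 0.43 higher (adjusted p = 0.00114). Ppp1r15a (GADD34), which restores translation after stress, read 8.53, 7.58 and 7.75 against 10.71, 10.99 and 11.20, 3.01 ± 0.40 higher (adjusted p = 0.000726, and 0.0584 with the covariates). The transcription factor Atf3 read 7.80, 6.90 and 7.41 against 8.81, 11.08 and 11.01, 2.93 ± 0.44 higher (adjusted p = 0.00143, and 0.101 with the covariates). Ccl3, a chemokine of activated myeloid and B cells, was 3.68 ± 0.41 higher (adjusted p = 0.000315). Ptgs2 (COX-2), the phosphatase Dusp1 and the G protein regulator Rgs2 were 2.26 ± 0.22, 2.52 ± 0.33 and 2.23 ± 0.26 higher (adjusted p = 0.000174, 0.000726 and 0.000378).

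Of 41 measured immediate-early genes, 33 (80.5%, against 3.64% of all genes) were higher in the spleens, with a median of -1.47. The mean level was 9.30 in the spleen of mouse 1 and 10.21 and 10.26 in those of mice 2 and 3, against 8.57, 8.0 and 8.42 in the nodes. This order over the spleens was the opposite of that of the neutrophil and erythroid lists. Leaving out each mouse in turn gave counts of 35, 15 and 20, with the spleens counted once 15, and with the covariates 7.

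The promoters of some of these genes hold the letters TGACGT, the core of the cyclic AMP response element to which CREB and ATF proteins bind. The letters were searched on both strands (ACGTCA on the other) in the 250 bases before the gene start, and the full palindrome TGACGTCA counts once on each strand. Counts are of genes with a promoter sequence, and a gene with several starts counts if any of them has a match. The letters occurred for 11 of 34 immediate-early genes (32.4%) and for 1395 of 15563 tested genes (8.96%). They occurred for 82 of 543 genes called higher in the spleens (15.1%) and 47 of 672 called higher in the nodes (6.99%). They were found for 3 of 18 genes of the migratory dendritic cell list (16.7%), whose calls were higher in the nodes. The counts were 1 of 19 for the follicular B cell list, 1 of 42 for the matrix list and 0 of 24 for the neutrophil list. A match is a string of letters, and binding was not measured. The stretches below, from RefSeq on GRCm38.p6, are the 100 bases before the gene start with the match in capitals, written 5′ to 3′ on the gene's strand. They are shown for 3 spleen-higher immediate-early genes and for Fscn1, which was higher in the nodes and holds the full palindrome.
Fos, chr12:85473790-85473889, plus strand: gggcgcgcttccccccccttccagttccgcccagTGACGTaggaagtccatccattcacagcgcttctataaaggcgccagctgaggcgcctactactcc
Ppp1r15a, chr7:45526269-45526368, minus strand: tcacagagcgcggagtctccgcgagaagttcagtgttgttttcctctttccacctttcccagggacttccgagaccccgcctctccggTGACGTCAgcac
Atf3, chr1:191183334-191183433, minus strand: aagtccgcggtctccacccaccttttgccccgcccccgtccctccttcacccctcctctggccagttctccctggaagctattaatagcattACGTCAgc
Fscn1, chr5:142960255-142960354, plus strand: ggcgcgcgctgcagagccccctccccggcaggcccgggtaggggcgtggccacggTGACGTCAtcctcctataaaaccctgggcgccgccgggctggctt

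Some microRNA hairpin genes on the array were called higher in the spleens. These genes were looked at after their values had been seen, and the description carries no test of the group. The probe sets measure the hairpin or its primary transcript, not the mature microRNA that binds targets through its seed, bases 2 to 8. Of 259 measured hairpin genes, 24 (9.27%) were higher in the spleens, against 3.64% of all genes, and 7 with the spleens of mice 2 and 3 counted as 1 or without mouse 2 or mouse 3. The mature sequences of the 3 hairpins with the smallest adjusted p, with the seed in capitals, are given first, from RefSeq on GRCm38.p6. They lie side by side on the plus strand of chromosome 8, with the Mir23a hairpin at chr8:84208518-84208592, that of Mir27a at chr8:84208672-84208758 and that of Mir24-2 at chr8:84208815-84208921.
mmu-miR-23a-3p: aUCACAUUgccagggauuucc
mmu-miR-27a-3p: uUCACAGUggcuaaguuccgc
mmu-miR-24-3p: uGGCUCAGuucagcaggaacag

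Mir27a read 7.01, 6.82 and 7.46 in the nodes and 8.77, 10.47 and 10.49 in the spleens, 2.81 ± 0.35 higher in the spleens (adjusted p = 0.000564, and 0.0187 with the spleens counted once). Mir23a read 7.16, 7.29 and 7.57 against 8.39, 9.82 and 9.83, 2.01 ± 0.24 higher (adjusted p = 0.00039). Mir24-2 read 7.02, 7.34 and 6.98 against 7.90, 9.07 and 9.13, 1.59 ± 0.21 higher (adjusted p = 0.000726, and 0.0683 with the covariates). In all 3 hairpins the spleen of mouse 1 was the lowest spleen, as in the immediate-early genes, and no node reached a spleen. Mir19b-1, of the Mir17 to Mir92a cluster known from B cell growth, read 3.99, 4.26 and 4.24 in the nodes and 5.17, 6.34 and 6.37 in the spleens, 1.79 ± 0.26 higher (adjusted p = 0.00118). Mir30e read 5.50, 6.01 and 6.37 against 7.61, 7.56 and 7.71, 1.67 ± 0.26 higher (adjusted p = 0.00186). Of the 24, Mir27a, Mir23a, Mir19b-1 and Mir30e are among the 71.

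Some of the 24 hairpins give mature microRNAs with the same seed. Mir17, Mir20a, Mir93 and Mir106b share AAAGUGC. Mir20a read 4.05, 4.0 and 4.14 in the nodes and 4.86, 5.62 and 5.53 in the spleens (adjusted p = 0.00134), while the differences of Mir17, Mir93 and Mir106b were -0.81, -0.55 and -0.70. The adjusted p of these 3 without mouse 2 was 0.120, 0.295 and 0.465. Mir15b and Mir16-2, which lie on chromosome 3, share AGCAGCA and were 1.33 ± 0.32 and 0.77 ± 0.20 higher in the spleens (adjusted p = 0.0165 and 0.0261, and 0.293 and 0.274 without mouse 2). Mir98 and Mirlet7d share the let-7 seed and were 1.02 ± 0.16 and 1.05 ± 0.23 higher (adjusted p = 0.00196 and 0.0105), with 0.0405 and 0.197 without mouse 2. Several of these hairpins lie within host genes, so their probe sets and the host transcript are not independent. Levels near 4 to 6 are in the range of the exocrine pancreas genes, which no FVB/N array showed above 6.09 on average.
mmu-miR-17-5p: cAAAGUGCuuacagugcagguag
mmu-miR-20a-5p: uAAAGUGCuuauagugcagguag
mmu-miR-93-5p: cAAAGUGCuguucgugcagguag
mmu-miR-106b-5p: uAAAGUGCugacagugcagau
mmu-miR-15b-5p: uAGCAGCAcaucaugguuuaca
mmu-miR-16-5p: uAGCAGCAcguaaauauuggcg
mmu-miR-98-5p: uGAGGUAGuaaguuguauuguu
mmu-let-7d-5p: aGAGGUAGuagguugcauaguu

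**Figure D5:**
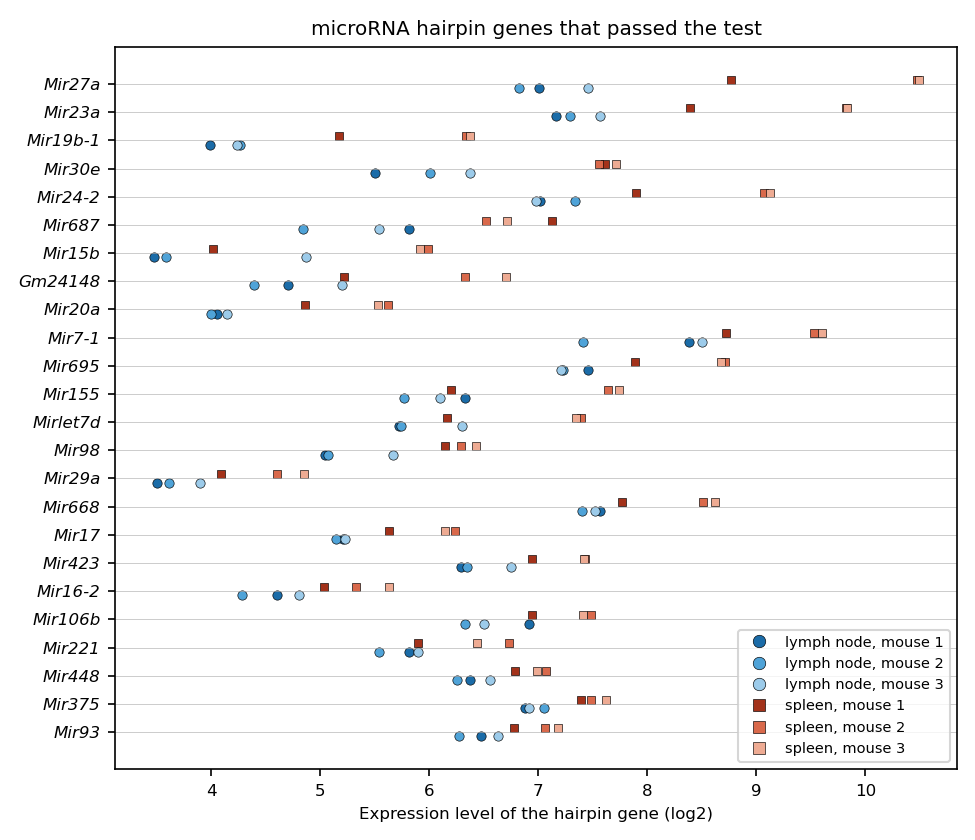
Log2 level (x axis) of the 24 hairpin genes called higher in spleen, 1 point per array, circles for nodes and squares for spleens, shaded by mouse. Mir27a spans 6.82 to 7.46 in the nodes and 8.77 to 10.49 in the spleens.

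The organ difference of FVB/N mice was set against that of the 6 asymptomatic Tg26 mice. With limma, 0 of 19938 genes were called for the difference of the organ differences, and 1114 had an unadjusted p under 0.05. Without FVB/N mouse 1 there were 45 calls, without mouse 2 there were 0, and without mouse 3 there was 1. Fosb was 3.80 higher in the spleens of FVB/N mice and 1.56 higher on average in those of asymptomatic mice, whose differences ran from -2.35 to -1.05 (interaction -2.24, adjusted p = 0.521). Ppp1r15a was 3.01 higher in the FVB/N spleens and 0.81 higher in the asymptomatic spleens (interaction -2.20, adjusted p = 0.408). Dcn differed by 5.78 and 5.80 in favour of the nodes (interaction -0.02), and Cxcl13 by 5.23 and 4.26 (interaction 0.97, adjusted p = 0.960). An adjusted p above the threshold does not show that the organ differences are alike. The asymptomatic nodes carried more adipose transcripts, with list means of 7.30 to 11.12 and a median of 10.17, and pancreas means of up to 13.25, and the part of either in this comparison was not tested.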

How the data were processed

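Expression was measured in total RNA of spleen and lymph node. The table deposited by the authors gives a log2 level for each probe set. Per the series' design text, these levels had been normalized at probe level by frozen RMA, a method that sets each array against a fixed reference. No scanner file was read, so background signal is unknown. Of 35556 probe sets with values, 21789 had 1 gene symbol in the platform annotation, 1621 had several and 12146 were not listed. Genes were named from probe sets with 1 symbol, of which 21698 matched RefSeq (GRCm38.p6) by Entrez identifier. The probe set with the highest mean represented a gene, which left 19938 genes, and no gene was filtered out.

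limma 3.58.1 in R 4.3.3 was fitted to all 30 arrays with the 15 mice as a fixed block and tissue within each state. The FVB/N value is the mean of 3 within-mouse differences, and all mice share the estimate of spread. p-values were adjusted by Benjamini-Hochberg over all genes and called under 0.05. The 3 mice are separate animals by their numbers. Pairing comes from the mouse number in the title, which names the animal. Deviations of node and spleen from their group means correlated with r of -0.01, 0.00 and 0.05 for mice 1, 2 and 3, which gave no sign of the pairing. In all 15 mice both organs agreed on whether Xist was high, which it was in 2 of them. Xist was low on all 6 FVB/N arrays, so this agreement cannot check the pairing of the FVB/N mice.

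Named genes were called, had the same sign in 3 mice and were the 15 per direction with the largest smallest within-mouse difference. Predicted, small RNA and receptor variable genes and neighbouring-tissue members were left out. Up to 5 members per list with the smallest adjusted p were added, and others needed to describe a list. For the salivary list the 5 members highest in any node were named. Genes, lists, settings and tests were chosen with earlier results of these data known. The immediate-early list and the hairpin genes were chosen after their values were seen here. The fit was tested on simulated data over 19938 genes, and recovered 75% of genes changed by 1 log2 unit and 96% of those changed by 2, with 7 false calls. The simulated noise was normal and independent between genes, and each change was the same in all 3 FVB/N nodes. No neighbouring-tissue signal or near-identical spleens were simulated, so these counts do not give the error rate of the real arrays.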

Additional observations from a re-analysis of the deposited data

How the results depend on the processing

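Counts of genes higher in the nodes and in the spleens are given in that order. The fit with the mouse as replicate block gave 879 and 725. Moved counts were 0 and 0 for the FVB/N arrays alone, 394 and 474 without the lymphoma mice, 572 and 337 with no replicate block, 427 and 424 with no replicate block and 6 surrogate variables, and 87 and 49 with the neighbouring-tissue covariates. Batch A alone gave 485 genes higher in the nodes, and a filter on low levels, which left 10094 genes, gave 408. Leaving out 1 mouse at a time gave 121 to 1559 genes higher in the nodes and 106 to 995 higher in the spleens. Counting the spleens of mice 2 and 3 as 1, with their nodes averaged too, gave 80 and 116. This setting was added after seeing the data. The other settings (robust variance with trend, mean of probe sets, median centring, quantile normalization) stayed within 1.5 times the counts. For the difference from asymptomatic mice, 0 genes were called with the block, 50 with no replicate block and 6 surrogate variables, and 0 to 45 when 1 FVB/N mouse was left out. The cause of these shifts was not tested. Of the 30 named genes, the direction held in all settings run, and 14 kept their call with the covariates and 18 with the spleens counted once, while 0 did in the FVB/N arrays alone. Among other genes described, none of them called, the sign turned for Ccr7 (0.10) and Spic (-0.15) with the covariates, for Spic (-0.43) and Chst4 (-0.00) with no replicate block and surrogate variables, and between mice left out for Cd3e (-0.36 to 0.52), Slc40a1 (-1.21 to 0.67) and Spic (-0.04 to 0.64). Only 3 mice limit the precision of every value.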
